A study of Rattus norvegicus with 18 samples.

Results

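OA macrophages were compared with sham macrophages of the rat knee synovium 12-weeks after surgery. The comparison took in 8 of the 18 libraries of the series, 4 from OA and 4 from sham rats, together with every gene that had a mean of at least 10 normalized reads over those 8 libraries. This left 14666 of the 30643 genes in the table for 12-weeks. All rats were wild type male Sprague Dawley animals, 12 weeks old at the time of surgery. Both groups had an arthrotomy, an opening of the joint capsule. In OA rats the anterior cruciate ligament and the medial meniscotibial ligament were also cut, which destabilizes the knee and models OA after trauma, while in sham rats no ligament was cut. Each library came from a pool of 3 rats, so the spread between libraries is a spread between pools. The libraries of a group are named OA or sham replicates 1 to 4, in the numbers of the sample labels, and values for a group are given in that order.

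The synovium lines the joint and holds macrophages in its lining and sublining, fibroblasts that secrete and remodel the extracellular matrix, and vessels and nerves. Macrophages take up debris, present antigen and release cytokines, and fibroblasts lay down fibrillar collagens, proteoglycans and the matricellular glycoproteins that signal to cells around them. Matrix is cut by metalloproteinases of the MMP and ADAMTS families, crosslinked by lysyl oxidases and filled with hyaluronan, and the balance of these steps is known to shift in the joint in OA.

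Cells were selected with magnetic beads for CD11b/c, the integrins encoded by Itgam and Itgax. Macrophage genes were present in every library. Itgam had 4799, 6051, 4651 and 5612 normalized reads in OA and 6104, 5395, 3700 and 5862 in sham. Csf1r, the receptor of the macrophage growth factor CSF1, had 32150, 36010, 32070 and 35860 in OA and 28710, 32190, 25270 and 36140 in sham. Sham replicate 3 was the lowest of the 8 libraries for both genes, as it was for Adgre1 and Cd68. Genes of other cells were read in every library as well, Col1a1 of fibroblasts among them, so the libraries were not made of macrophage RNA alone. In bulk RNA, fewer cells of a type and less RNA per cell cannot be told apart. Recovered reads ranged from 12841781 to 15697734 in OA and from 10976114 to 18080503 in sham, where sham replicate 3 had the fewest. The detection floor was set at 3 reads, worth 2.27 to 3.82 normalized reads, which covers counting error only. Across the genes tested, the SD of the log2 deviation from the mean of the other libraries of the group was 0.408 in sham replicate 3, against 0.282 to 0.366 in the other sham libraries and 0.285 to 0.323 in OA. The comparison is therefore given with all 8 libraries and with the 7 that leave out sham replicate 3, a choice made with the results of these data known.

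Genes counted as called differed by 0.5 or more on the log2 scale, up or down, with an adjusted p-value under 0.05. The test was limma on log2(normalized reads + 1), where the pseudocount makes the fold changes of low genes too small. Called without a tool named means called by limma. With all 8 libraries 0 of the 14666 genes were called, a percentage of 0, and the smallest adjusted p-value was 0.181. At an unadjusted p-value under 0.05 there were 1814 genes (12.4%), 843 higher (5.75%) and 971 lower (6.62%) in OA. The quasi-likelihood test of edgeR also called 0 genes (a percentage of 0), where 1833 passed the unadjusted threshold, while DESeq2 on the recovered reads of the same genes called 100 (0.682%), 83 higher (0.566%) and 17 lower. The groups did not overlap in 418 genes higher in OA (2.85%) and in 504 genes lower in OA (3.44%).

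The genes with the smallest p-values in the 8 libraries were of several kinds. Acp5 (ENSRNOG00000046261), the tartrate-resistant acid phosphatase of osteoclasts and some macrophages, had 982, 999, 1055 and 1420 normalized reads in OA and 608, 529, 605 and 662 in sham. The difference on the log2 scale was 0.88 (SE 0.12), at an adjusted p-value of 0.181 in limma. Every OA library lay above every sham library, and sham replicate 3 lay among the other sham libraries. Lrrn4cl (ENSRNOG00000026302) had 853, 844, 788 and 920.2 in OA and 579.6, 479.6, 612 and 546 in sham, with a log2 fold change of 0.62 (SE 0.09) and an adjusted p-value of 0.181 in limma. Its groups did not overlap either, and the value was 0.67 (SE 0.08) without sham replicate 3. Htra3 (ENSRNOG00000008182), a secreted serine protease, had 467, 496, 489 and 633 in OA and 343, 259.5, 331 and 295 in sham. Its groups did not overlap, and its log2 fold change was 0.76 (SE 0.12). Further genes of this kind were Tmem119 at 0.81, Fam171b at 0.74, the axon guidance ligand Sema3c at 0.57 and the GATA-type repressor Trps1 at 0.45 on the log2 scale. These 7 genes had adjusted p-values from 0.181 to 0.253 in limma with 8 libraries, and all but Trps1 were called with 7.

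The lower genes of smallest p-value included receptors, channels and a death ligand. Gria2 (ENSRNOG00000054204), a subunit of AMPA-type glutamate receptors, had 498, 509, 471 and 457 normalized reads in OA and 693, 703, 612 and 858 in sham, a log2 fold change of -0.56 (SE 0.10). Dpep2 (a membrane dipeptidase) had 889, 988, 801 and 771 in OA and 1326, 1117, 1269 and 1142 in sham. Tnfsf10, which encodes the death ligand TRAIL, had 2422, 2510, 2818 and 2276 in OA and 3271, 3323, 3944 and 3271 in sham. None of the 3 overlapped between groups, and the highest value of Tnfsf10 was in sham replicate 3. Scnn1g, a subunit of the epithelial sodium channel, had the largest of these differences, with 133, 118, 109 and 76.1 in OA and 259.9, 196, 225 and 170.1 in sham, with a log2 fold change of -0.97 (SE 0.18). The aggrecanase-family gene Adamts15 had a log2 fold change of -0.60, and Gramd4, RGD1308117 and Slc12a7 had -0.35, -0.48 and -0.28. All 8 had an adjusted p-value of 0.264 in limma, and of them Gria2 alone was called with 7 libraries.

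**Figure D1:**
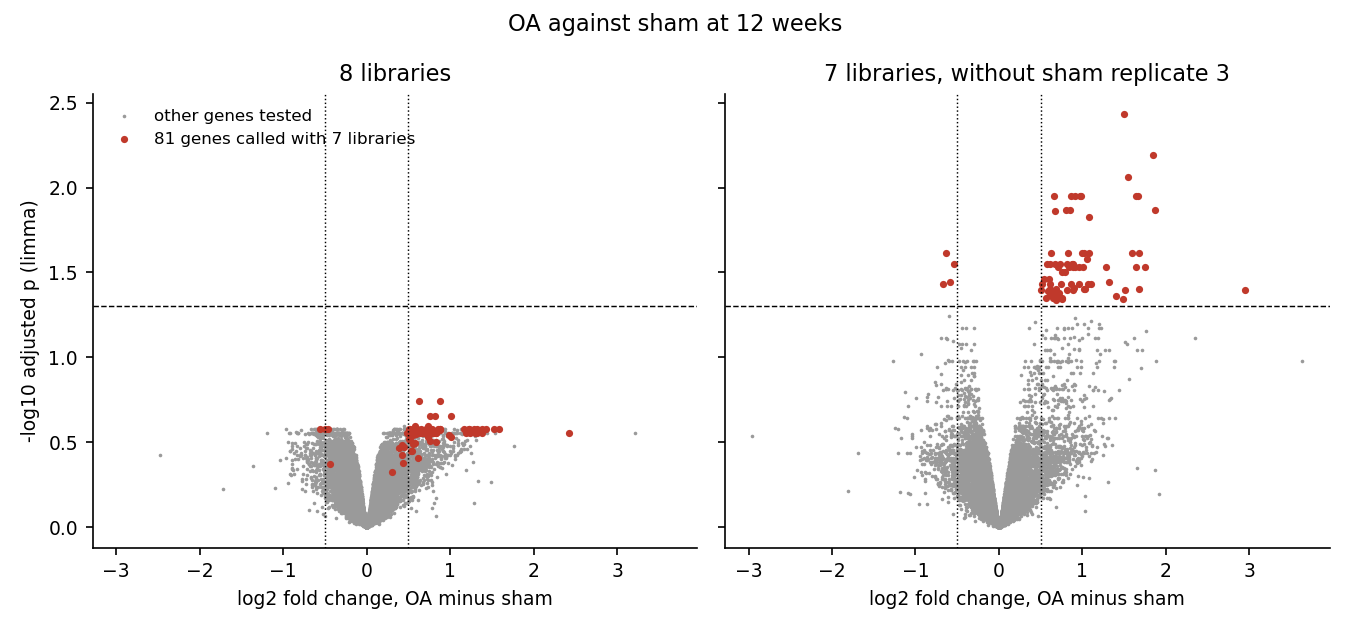
Each point is 1 of the 14666 genes tested at 12-weeks, with the log2 fold change of OA minus sham on the x axis and −log10 of limma's adjusted p-value on the y axis, with 8 libraries (left) and without sham replicate 3 (right). The dashed line marks an adjusted p-value of 0.05 and the dotted lines a log2 fold change of 0.5. The 81 genes called with 7 libraries (red) all lie under the dashed line with 8, where their adjusted p-values start at 0.181.

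Without sham replicate 3, limma called 81 genes (0.552% of those tested), 77 higher (0.525%) and 4 lower (0.0273%) in OA. The rises ran from 1.42-fold to 7.74-fold. Of the 77, 33 were members of at least 1 of the gene lists used here and 26 were in a list of matrix genes. The quasi-likelihood test of edgeR on these 7 libraries called 78 genes (0.532%), and DESeq2 called 248 (1.69%). The count fell to 20 without OA replicate 1, 19 without OA replicate 3, 28 without OA replicate 4, 39 without sham replicate 1 and 17 without sham replicate 2, and it was 0 with 1 surrogate variable as a covariate. The 12 genes called whichever further library was left out were Adamts16, Cthrc1, Ptprv, Col22a1, Lum, Vit, Cdh11, Itgbl1, Fndc1, Sdc2, Igfbp6 and Cd9. Genes named from here on beyond the largest rises, falls and list members were chosen after their values were seen.

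Matricellular glycoproteins held the largest rise. Tnn (ENSRNOG00000002548), the gene of tenascin-W, had 1795, 953, 1926 and 1220 normalized reads in OA and 539, 96.3, 789 and 116 in sham. It rose by 2.95 on the log2 scale (SE 0.51, adjusted p-value 0.0404 in limma) without sham replicate 3, and the difference was 2.42 (SE 0.62, adjusted p-value 0.279) with it. The OA libraries lay above all sham libraries, and sham replicates 1 and 3 lay well above replicates 2 and 4. Cthrc1 (ENSRNOG00000004578), a secreted protein of activated fibroblasts, had 112, 78.6, 92.2 and 86.9 in OA and 28.0, 22.4, 91.6 and 24.1 in sham, a rise of 1.85 (SE 0.17) with 7 libraries. Sham replicate 3 reached the level of the OA libraries here, and none of the other 3 sham libraries was above 28.0. Postn (ENSRNOG00000012660), the gene of periostin, had 3007, 1898, 1956 and 1914 in OA and 921, 1066, 1987 and 1074 in sham, and rose by 1.08 (SE 0.15). For it too, sham replicate 3 lay among the OA libraries, of which replicate 1 was the highest. Vit, the gene of vitrin, rose by 1.50, Ccn5 by 1.07, Ccn3 by 0.83 and Thbs3, a thrombospondin, by 0.73 on the log2 scale. The EGF-repeat gene Egfl6 (ENSRNOG00000004275) had 121, 84.8, 172 and 89.0 in OA and 37.0, 36.1, 100.5 and 29.9 in sham and rose by 1.68 (SE 0.24).

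The promoters of 5 called genes are shown for this set. They are Tnn, Lum and Postn of the matrix genes, Clec4d of the myeloid receptors and Lgals9 of the lower genes. The sequences are from RefSeq on build GRCr8, which is not the build of the counts, and each gives the 120 bases before the annotated start, 5′ to 3′ on the strand of the gene. Capitals mark a match to 1 of 3 motifs searched on both strands, the TATA box (TATAAA), the CCAAT box (CCAAT) and the core that RUNX factors bind (TGTGGT).
Tnn, chr13:74919790-74919909, minus strand: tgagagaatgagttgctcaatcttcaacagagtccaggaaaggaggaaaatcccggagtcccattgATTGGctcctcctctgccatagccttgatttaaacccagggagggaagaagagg
Lum, chr7:34245586-34245705, plus strand: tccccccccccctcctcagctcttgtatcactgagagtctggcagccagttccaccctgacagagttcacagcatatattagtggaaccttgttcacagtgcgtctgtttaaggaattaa
Postn, chr2:140677941-140678060, plus strand: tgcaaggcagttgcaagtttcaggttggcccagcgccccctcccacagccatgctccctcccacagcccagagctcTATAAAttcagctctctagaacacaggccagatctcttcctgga
Clec4d, chr4:158275223-158275342, plus strand: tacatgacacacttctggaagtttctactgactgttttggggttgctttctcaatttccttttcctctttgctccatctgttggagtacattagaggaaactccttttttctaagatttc
Lgals9, chr10:64428071-64428190, minus strand: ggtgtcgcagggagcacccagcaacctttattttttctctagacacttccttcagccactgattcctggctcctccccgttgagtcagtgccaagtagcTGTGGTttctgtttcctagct
The Tnn sequence holds a CCAAT box, written on the other strand, that starts 54 bases before the start. The TATA box of Postn lies 44 bases before it, and the RUNX core of Lgals9 lies 21 bases before it. The Lum and Clec4d sequences hold none of the 3 motifs in these 120 bases. Over 250 bases, Lum holds a CCAAT box 130 bases and a RUNX core 176 bases before the start, and Clec4d still holds none. Of 33469 promoters searched over 250 bases, 12.9% hold TATAAA, 34.0% CCAAT and 14.5% TGTGGT. A match is a description of the letters and not a binding site. Only 41 of the 77 genes called higher matched a single promoter by symbol (53.2%), so no share is given over these genes.

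Collagens and the enzymes that build fibres rose next to these. Col22a1 (ENSRNOG00000024824), a collagen of tissue junctions such as that of muscle and tendon, had 566, 461, 675 and 866 normalized reads in OA and 228, 189, 482 and 183 in sham, a rise of 1.65 (SE 0.18) without sham replicate 3. Col1a1 (ENSRNOG00000003897), the main chain of fibrillar collagen, had 23040, 16120, 17920 and 15530 in OA and 11060, 10840, 16550 and 10720 in sham, a rise of 0.72 (SE 0.13). In both, sham replicate 3 exceeded at least 1 OA library while the other 3 sham libraries lay below all of them. Col14a1, a collagen that sits on fibrils, rose by 1.00, Col5a1 of the fibril core by 0.61 and Col6a6 by 0.50. Loxl1, a crosslinking lysyl oxidase, rose by 0.70, and Adamts2, which trims procollagen, by 0.67. Antxr1, a receptor that binds collagen, rose by 0.69 on the log2 scale.

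Proteoglycans and hyaluronan genes were also in the set. Lum (ENSRNOG00000004610), the gene of lumican, a leucine-rich proteoglycan that binds collagen fibrils, had 2486, 1524, 2110 and 1785 normalized reads in OA and 769, 660.0, 1615 and 578 in sham. It rose by 1.55 (SE 0.16, adjusted p-value 0.00869 in limma) without sham replicate 3, whose value lay between those of OA replicates 2 and 4. Cemip (ENSRNOG00000012442), which depolymerizes hyaluronan, had 287, 296, 349.6 and 337 in OA and 109, 53.3, 172 and 141 in sham. Its groups did not overlap with sham replicate 3 either, and it rose by 1.75 (SE 0.27). The hyaluronan synthase Has1 had 664, 552, 709 and 711 in OA and 380.1, 272, 799 and 406 in sham, with its highest value of all in sham replicate 3. Has1 rose by 0.91 with 7 libraries and had 0.61 (adjusted p-value 0.39 in limma) with 8. Sdc2, a syndecan, rose by 0.87, and Chpf, which extends chondroitin sulfate chains, by 0.62.

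Proteases of the matrix rose in 7 members of the list of proteases and their inhibitors. Fap (ENSRNOG00000005679), a serine protease of activated fibroblasts, had 1414, 1413, 1527 and 1658 normalized reads in OA and 881, 528, 1183 and 807 in sham, a rise of 1.05 (SE 0.15). Adamts16 (ENSRNOG00000016812) had 105, 91.9, 99.7 and 150.1 in OA and 34.0, 20.6, 66.1 and 35.6 in sham, a rise of 1.87 (SE 0.23). Neither gene overlapped between the groups with all 8 libraries, and sham replicate 3 was the highest sham library for both. Adamts17 rose by 1.49, Mmp16 by 1.51, Htra3 by 0.80, the membrane protease Mmp14 by 0.88 and the gelatinase Mmp2, which MMP14 activates, by 0.76. Mmp2 had 4251, 3349, 3617 and 2914 in OA and 2038, 1880, 3822 and 2306 in sham, so that sham replicate 3 exceeded 3 of the 4 OA libraries. The collagenase Mmp13 had a log2 fold change of 3.63 (SE 0.82) with 7 libraries and was not called, at an adjusted p-value of 0.105 in limma. Its values were 31.4, 338, 299 and 168 in OA and 28.0, 3.44, 38.2 and 13.8 in sham, and with sham replicate 3 the groups overlapped at OA replicate 1.

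Other called genes encode receptors, ligands and enzymes of several kinds. Pdgfra, the PDGF receptor that marks fibroblasts, had 1454, 1097, 1351 and 1240 normalized reads in OA and 802, 718, 1342 and 686 in sham and rose by 0.80 (SE 0.10). Cdh11, the cadherin that joins synovial fibroblasts, rose by 0.99, and Lpar1, a lysophosphatidic acid receptor, by 1.07. Igfbp6, which binds IGF2, had 1816, 1475, 1586 and 1507 in OA and 761, 1007, 1299 and 889.5 in sham, without overlap, and rose by 0.85 (SE 0.10). The decoy receptor of RANKL, Tnfrsf11b, rose by 0.75, the BMP antagonist Nbl1 by 0.60 and the VIP receptor Vipr2 by 1.32. Gfpt2 of the hexosamine pathway rose by 1.28, the complement protease C1s by 0.74, the complement inhibitor Cd55 by 0.54 and the ferritin receptor Scara5 by 0.69. The guidance ligands Ntn4, Sema3b and Sema3c rose by 0.86, 0.61 and 0.59. C1qtnf3 rose by 1.64, Baalc by 1.68 and the neuronal adhesion gene Slitrk6 by 1.59. Clec2dl1, at 1.40, belongs to a family of similar genes, so its reads could have been split with relatives and its value is uncertain.

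A few called genes are known from myeloid cells. Clec4d (ENSRNOG00000010181) and Clec4e encode C-type lectin receptors that sense glycolipids. Clec4d had 2783, 3028, 2633 and 3416 normalized reads in OA and 1914, 2053, 1339 and 1848 in sham, without overlap, and rose by 0.61 (SE 0.09, adjusted p-value 0.028 in limma). With sham replicate 3, the lowest library, the log2 fold change was 0.74 (SE 0.13). Clec4e had 1977, 1469, 1518 and 1377 in OA and 1063, 915, 1336 and 1006 in sham, without overlap, and rose by 0.66 (SE 0.12). The adhesion gene Nrcam had 495, 529, 487 and 479 in OA and 316, 385, 235 and 345 in sham and rose by 0.52 (SE 0.09), also with sham replicate 3 as the lowest library. For Clec4d and Nrcam, sham replicate 3 thus lay farther from OA than the other sham libraries did. Cd9, a tetraspanin of macrophages and many other cells, rose by 0.66, and Acp5 by 0.88.

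All 4 genes called lower lay lower in sham replicate 3 than in any other sham library, which held for 32.7% of all genes and for 55.5% of the 384 that were at least 0.5 lower in OA. With 7 libraries the groups were apart in this direction in 5.86% of all genes. Lgals9 (ENSRNOG00000012681), the gene of galectin-9, had 849.9, 932, 772 and 751 normalized reads in OA and 1194, 1208, 948 and 1196 in sham and fell by 0.54 (SE 0.08) on the log2 scale. Cd22 (ENSRNOG00000024000), an inhibitory lectin best known from B cells, had 505, 492, 367 and 465 in OA and 680.1, 768, 374 and 727 in sham and fell by 0.67 (SE 0.11). Sham replicate 3 was inside the OA range for Cd22 and just above it for Lgals9. Prkar2b, a regulatory subunit of protein kinase A, fell by 0.58 and Gria2 by 0.63. The defining B cell genes Ms4a1 and Cd79a were below a mean of 10 normalized reads.

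**Figure D2:**
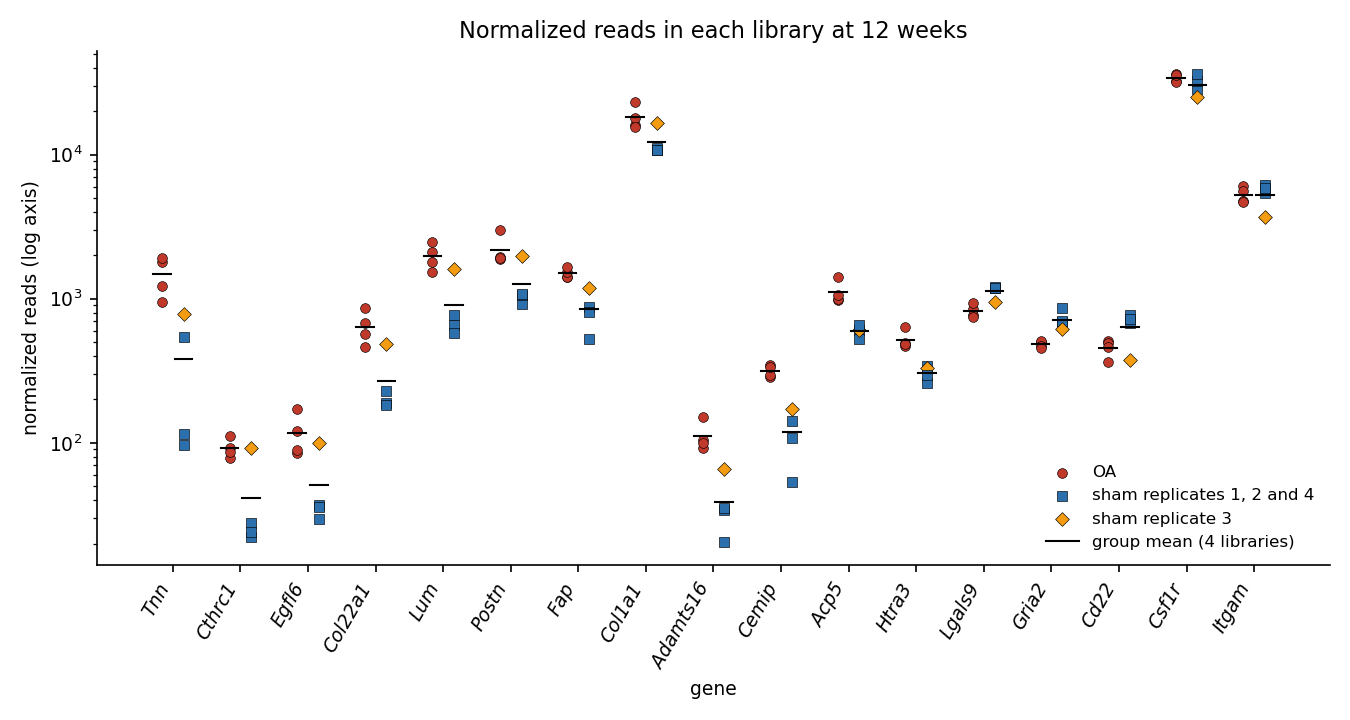
Normalized reads (log axis) of 17 genes in each library at 12-weeks, for OA (circles), sham replicates 1, 2 and 4 (squares) and sham replicate 3 (diamonds), with bars at the mean of the 4 libraries of a group. In Cthrc1, Egfl6, Col22a1, Lum, Postn and Col1a1 the diamond lies within the OA circles, in Cemip, Adamts16 and Fap it lies below them, and in Itgam and Csf1r it is the lowest of the 8 libraries.

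The place of sham replicate 3 was measured for each called gene as a percentage of the way from the mean of the other 3 sham libraries to the OA mean, on the log2 scale. For the 77 higher genes the median was 82.8%, with quartiles of 59.5% and 93.2% and a range from -109% (Nrcam) to 156% (Col6a6). In 62 of the 77 the library lay past the middle, and in 45 it reached the lowest OA library. It was the highest sham library in 71 of the 77. Over all genes tested it was the highest in 31.1%, and in 59.8% of the 791 genes that were at least 0.5 higher in OA in the 7 libraries, so part of that count goes with the choice of genes. All 77 separated the groups with 7 libraries, where 5.69% of all genes did so in that direction. With 8 libraries 32 of the 77 did, where 2.85% of all genes did. Their adjusted p-values with 8 libraries ran from 0.181 to 0.471 in limma. Of the 77, 75 had an unadjusted p-value under 0.05, and DESeq2 called 35 of them with 8 libraries. The genes were chosen by the fit without this library, so these counts describe it and carry no test.

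Sham replicate 3 stood apart from the other sham libraries in other genes too, named here by the distance of its level from the median of the other 3. Adamts13, which cleaves von Willebrand factor, had 2.62, 9.19, 159.8 and 138 normalized reads in OA and 3.78, 105, 163 and 0 in sham and was high in 2 libraries of each group. The histone gene H3f3c, a member of a family of near-identical genes and therefore uncertain, had 74.1, 101, 383 and 81.6 in sham against 52.4, 83.7, 118 and 122 in OA. Mmp3 (stromelysin) had 428, 525, 614 and 399 in OA and 325, 108, 527 and 131 in sham, and Kera, a proteoglycan of cornea and tendon, had 199, 110.3, 110.5 and 61.1 in OA and 40.8, 73.9, 164 and 27.6 in sham. Unc79 and Tnn made up the 6 genes farthest above that median. The 6 farthest below it were Chst5, Lilrb3, Spp1, RGD1561730, Camp and Ngp. Spp1, the gene of osteopontin, had 1130, 1469, 2419 and 3790 in OA and 4542, 3687, 660.1 and 2083 in sham, and the neutrophil granule genes Camp and Ngp had 399, 18.9, 62.3 and 283 and 937, 31.8, 128 and 646 in sham. Lilrb3, an inhibitory receptor of myeloid cells from a family of similar genes, had 1855, 1253, 219 and 207 in OA and 2123, 2796, 267 and 287 in sham, high in replicates 1 and 2 of both groups. Chst5, a sulfotransferase, had 4.36, 10.2, 8.58 and 5.36 in OA and 204, 5.16, 15.3 and 172 in sham, where sham replicates 1 and 4 stood above the other 6 libraries. Of these 12 genes limma called Tnn alone, with 7 libraries. DESeq2 called Chst5 with 8 libraries (adjusted p-value 0.048) and with 7 (0.011), and Tnn (0.0164) and Kera (0.024) with 7.

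The lists of matrix genes described the same difference over all their members. They held 237 distinct genes with a mean of at least 10, of which 157 were higher in OA with 8 libraries, against 47.5% of all genes tested. Of the 237, 26 were called higher and 0 lower with 7 libraries (10.97%, against 0.552% of all genes). Their median log2 fold change was 0.15 with 8 libraries and 0.20 with 7, against -0.01 and -0.02 over all genes tested. Members below a mean of 10 were not measured, and a low gene enters more easily when it is high in 1 group, so counts over the measured members are a description only. No list is given a test here.

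Fibrillar collagens were the most even of these lists. All 10 measured genes were higher in OA, with a median of 0.49 (8 libraries) and 0.60 (7 libraries). With 7 libraries 2 were called, Col1a1 and Col5a1. All counts called in this paragraph are from that fit, which called 0.552% of all genes, and 0 were called with 8. Col3a1, the chain of reticular fibres, had 70360, 56930, 60620 and 55140 normalized reads in OA and 36070, 39730, 58080 and 43220 in sham, and Col11a1 had a log2 fold change of 0.86 and Col2a1 of cartilage 0.95, with 374, 369, 1085 and 1277 in OA and 311, 341, 305 and 426 in sham. For Col3a1 sham replicate 3 lay in the OA range, while for Col2a1 OA replicates 3 and 4 alone stood above sham. Of the other collagens, 18 of 28 were higher, with medians of 0.10 and 0.18 and 3 called. Collagen processing had 19 of 24 higher, with medians of 0.16 and 0.20 and 2 called, and Adamts14, the relative of Adamts2, had 0.91. Matrix glycoproteins had 40 of 65 higher, with medians of 0.19 and 0.24 and 7 called (Tnn, Thbs3, Postn, Vit, Ccn3, Ccn5 and Cthrc1). Proteoglycans had 20 of 25 higher, with medians of 0.37 and 0.41 and 2 called, and Podnl1 had 1.13. Proteases and inhibitors had 27 of 44 higher, with medians of 0.14 and 0.19 and 7 called. Glycosaminoglycan genes had 23 of 41 higher, with medians near that of all genes, 0.05 and 0.07, and 3 called.

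Markers of fibroblasts moved with these genes. Of 15 measured fibroblast markers 13 were higher in OA, with a median of 0.50 with 8 libraries and 0.64 with 7. With 7 libraries 5 were called, against 0.552% of all genes. They were Pdgfra, Col1a1, Lum, Fap and Postn, all of which except Pdgfra also stand in a matrix list. The mean log2 level of the list was 10.95, 10.68, 10.82 and 10.73 in OA and 10.39, 10.19, 10.68 and 10.23 in sham. Sham replicate 3 was thus level with OA replicate 2 and above the other sham libraries. Summed over the list, OA libraries had 93090 to 118900 normalized reads and sham libraries 63380 to 95270, the upper end being sham replicate 3, and no marker was at 0. Dcn, the gene of decorin, had 7991, 6623, 7991 and 6211 in OA and 4155, 3639, 6880 and 6353 in sham. The 2 lower members were Thy1, with 684, 659.7, 652 and 429 in OA and 949.9, 1168, 740.3 and 606 in sham, and Twist1. The part of fibroblast markers in the rise of the matrix genes was not tested. Tendon and ligament markers were higher in 6 of 7, with medians of 0.52 and 0.69, and cartilage and bone markers in 12 of 15, with 0.39 and 0.49. Thbs4 of tendon had 2977, 1217, 1888 and 1535 in OA and 721, 1006, 1964 and 647 in sham, with sham replicate 3 again in the OA range.

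Skeletal muscle markers followed another pattern over the libraries. They were higher in 19 of 21, with a median of 0.47 with 8 libraries and 0.40 with 7, and 0 were called in either fit. The mean log2 level was 6.26 to 6.78 in OA and 5.95 to 6.09 in sham, without overlap, and sham replicate 3 was the lowest. Acta1, the actin of skeletal muscle, had 463, 637, 951 and 627 normalized reads in OA and 394, 370.4, 352 and 384 in sham. Mb (myoglobin) had 80.3, 111, 134 and 69.7 in OA and 47.6, 49.9, 50.9 and 51.7 in sham. Both were separate between the groups, with log2 fold changes of 0.79 and 0.92 and adjusted p-values of 0.265 and 0.265 in limma. Tnni1, of slow fibres, had 1.05. DESeq2 called 4 of the 21 markers higher with 8 libraries, against 0.566% of all genes.

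The lists of macrophage markers differed from each other. The 15 pan-macrophage markers were higher in 13, with medians of 0.17 and 0.08, 0 called, and a mean log2 level of 12.62 to 12.89 in OA and 12.32 to 12.80 in sham. The lowest was sham replicate 3. Cd14, a co-receptor of lipopolysaccharide, had 7099, 7959, 7433 and 9258 normalized reads in OA and 5985, 5750, 6118 and 6688 in sham, without overlap, and a log2 fold change of 0.37 (adjusted p-value 0.279 in limma). C1qa, C1qb and Lyz2 had 0.19, 0.25 and 0.31. Markers of lining macrophages had 4 of 6 higher, with a median of 0.49 in 8 libraries and 0.46 in 7. Limma called 0 of them, and DESeq2 called 2 higher in both fits. Over all genes tested DESeq2 called 0.566% higher with 8 libraries and 210 of 14666 with 7. Cx3cr1, the fractalkine receptor that marks the macrophage barrier of the lining, had 1620, 2313, 1792 and 2796 in OA and 1582, 989, 956 and 1351 in sham and a log2 fold change of 0.80 (SE 0.20, adjusted p-value 0.275 in limma). Trem2 had 4108, 4686, 4487 and 5878 in OA and 3484, 2531, 2994 and 4031 in sham, and Axl, a receptor for apoptotic cells, had 6008, 6105, 6375 and 7725 in OA and 5916, 3853, 4800 and 5328 in sham. In these 3 genes the OA libraries lay above the sham libraries, as in 2.85% of all genes tested. The lowest OA value was close to the highest sham value in each. Vsig4, a complement receptor, had 5597, 7475, 9842 and 9824 in OA and 6590, 2810, 5182 and 6984 in sham, with overlap. The junction genes Tjp1 and F11r made up the 2 lower members, and the lowest log2 fold change of the list was -0.29 with 8 libraries.

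Other myeloid lists had medians from -0.21 to 0.24 with 8 libraries, against -0.01 over all genes tested. Markers of resident sublining macrophages were higher in 8 of 10 with medians of 0.07 and -0.02, and the hyaluronan receptor Lyve1 had 10790, 14610, 12200 and 15320 normalized reads in OA and 10140, 8111, 7724 and 10990 in sham, with overlap. Folr2 and Gas6 had 0.17 and 0.17. Lipid-associated macrophage genes were higher in 11 of 19, with medians of 0.14 and 0.13 and 1 called, Cd9, and Msr1, a scavenger receptor, had 0.50 without overlap. Osteoclast markers were higher in 6 of 10, with medians of 0.24 and 0.16. Of them limma called 1 with 7 libraries, Acp5, and DESeq2 called 2 higher in both fits. Over all genes tested, limma called 0.552% with 7 libraries. DESeq2 called 0.566% of all genes higher with 8 libraries and 210 of 14666 with 7. The collagen-degrading protease Ctsk had 813, 921, 670.3 and 1024 in OA and 617, 489.9, 585 and 609 in sham, without overlap, and a log2 fold change of 0.56, whereas Atp6v0d2 overlapped with 10.5, 37.8, 15.0 and 77.2 in OA and 23.4, 10.3, 10.2 and 19.5 in sham. Monocyte markers were higher in 3 of 8 (medians -0.21 and -0.18) and dendritic cell markers in 2 of 10 (-0.11 and -0.16), with 0 called. Ly6c, Plac8 and Cd244 of the former had -0.38, -0.32 and -0.44, and Clec9a, Fscn1 and Batf3 of the latter had -0.34, -0.23 and -0.32. MHC class II genes were higher in 14 of 16, with medians of 0.14 and 0.09, 0 called by limma and 1, RT1-DMb, called higher by DESeq2 in both fits. RT1-DMb had 22.7, 33.7, 52.5 and 64.3 in OA and 6.80, 18.1, 19.1 and 12.6 in sham, without overlap, as an uncertain value in a family of similar genes, while RT1-DMa had 0.73 and Ctss, which processes the invariant chain, 0.42.

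**Figure D3:**
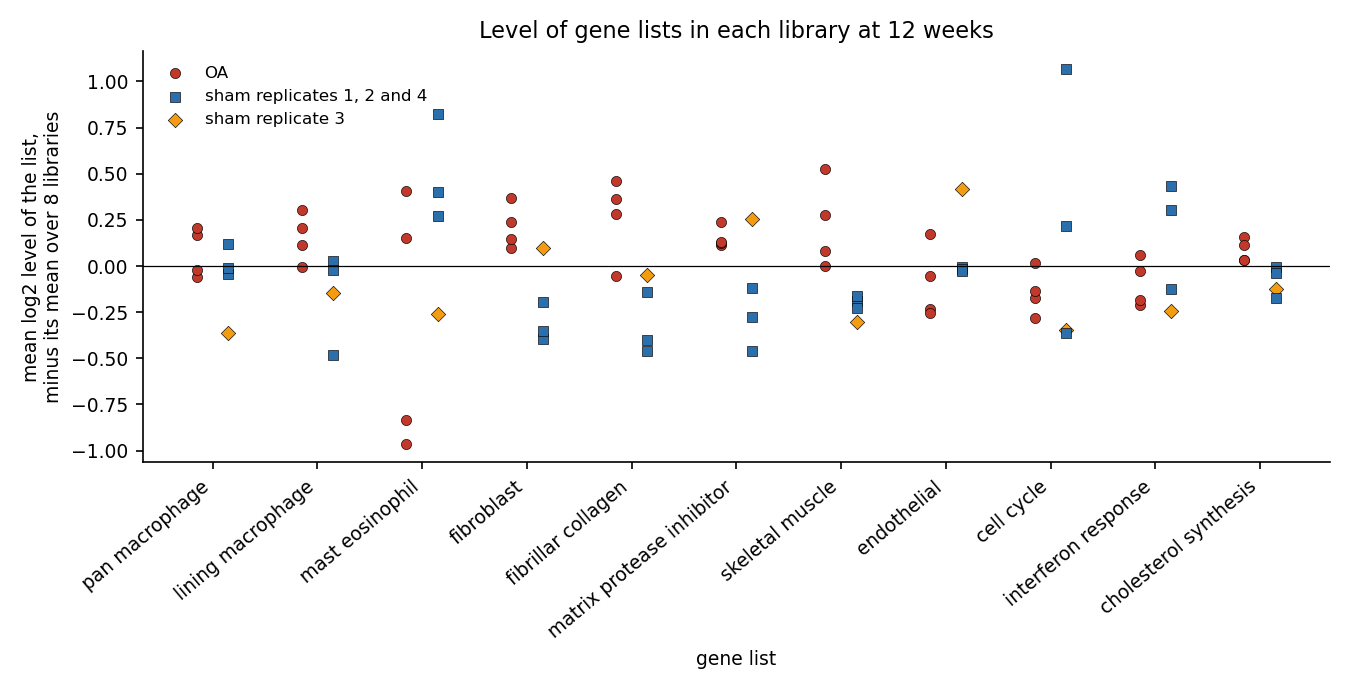
Mean log2 level of 11 gene lists in each library at 12-weeks, minus the mean of the list over the 8 libraries, for OA (circles), sham replicates 1, 2 and 4 (squares) and sham replicate 3 (diamonds). Sham replicate 3 lies with OA for fibroblast markers, at the top of OA for matrix proteases, above all libraries for endothelial markers and below all for pan-macrophage and skeletal muscle markers, and sham replicate 2 stands above all for cell cycle genes.

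Markers of granulocytes, mast cells and lymphocytes were mostly lower in OA and varied between libraries. All 11 measured mast cell and eosinophil markers were lower, with medians of -0.47 and -0.71 and 0 called. The mean log2 level of this list was 6.67 to 8.04 in OA and 7.37 to 8.46 in sham, so the groups overlapped. The mast cell tryptase Tpsab1 had 204, 203, 106 and 95.5 normalized reads in OA and 181, 468, 137 and 302 in sham, Kit had -0.35, and Epx (eosinophil peroxidase) had 23.6, 24.5, 5.36 and 7.51 in OA and 106, 12.9, 16.5 and 55.2 in sham. Neutrophil markers were lower in 7 of 9 (medians -0.21 and -0.41), with levels from 6.40 to 8.32 in OA and 6.04 to 8.65 in sham. Libraries of the same group thus lay far apart, and Csf3r, Cxcr2 and Lcn2 had -0.30, 0.25 and -0.43. T and NK cell markers were lower in 8 of 12 (medians -0.15 and -0.33), with Cd3e, Cd3d and Cd3g below a mean of 10. Of them Cd4, which rat macrophages also express, had 0.31, Cd8a had -0.42 and the NK receptor Ncr1 -0.83. Of the B and plasma cell markers 4 of 10 in the table were measured, 3 of them higher (medians 0.17 and 0.29), and Jchain had 76.8, 62.3, 15.0 and 3.22 in OA and 52.1, 7.74, 11.4 and 10.3 in sham. Cd79b had -0.25 and Fcrla 0.29.

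Endothelial, mural and adipocyte markers were mostly lower in OA, while erythroid markers were higher. Endothelial markers were lower in 12 of 14, with medians of -0.21 and -0.10 and 0 called. Their mean log2 level was 10.96 to 11.39 in OA and 11.19 to 11.63 in sham, where sham replicate 3 was the highest library and the other 3 lay between 11.19 and 11.21. Cdh5 (VE-cadherin), Erg and Kdr had -0.35, -0.32 and -0.26. Mural and smooth muscle markers were lower in 9 of 12 (medians -0.24 and -0.18), with Notch3 at -0.36, Des at -0.45 and Cspg4 at 0.62. All 4 measured adipocyte markers were lower (medians -0.17 and -0.17), among them Lipe at -0.35, Fabp4 at -0.29 and Cfd at -0.05. Schwann cell and nerve markers were higher in 5 of 9 (0.14 and 0.20), with Sox10 at 0.93, Mbp at 0.28 and Ngfr at -0.33. All 5 measured erythroid markers were higher (0.40 and 0.32) with wide spread, as in Hbb with 1531, 552, 2363 and 1344 normalized reads in OA and 673, 1495, 697 and 862 in sham. Hba-a2 had 0.40 and Slc4a1 0.42, and globin genes have near-identical copies. The cartilage and bone genes Ibsp and Dmp1 had 1.00 and 0.89 at low levels.

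Interferon response genes tended to be lower in OA without passing the test, while cytokine genes differed in both directions. Interferon response genes were lower in 25 of 30, with medians of -0.14 and -0.23, 0 called in limma and 4 called lower by DESeq2 with 7 libraries, which did so for 0.259% of all genes. Ifi44l had 174, 286, 249 and 211 normalized reads in OA and 404, 344, 345 and 316 in sham, without overlap, a log2 fold change of -0.63 (SE 0.15, adjusted p-value 0.265 in limma). Ifi44 and Gbp5 had -0.32 and -0.20. The mean log2 level of the list was 9.53 to 9.80 in OA and 10.17, 10.04, 9.50 and 9.61 in sham, so sham replicates 1 and 2 were high and replicates 3 and 4 lay with OA. Cytokines and chemokines were lower in 22 of 35 (medians -0.10 and -0.10), where 47.5% of all genes were higher. At an unadjusted p-value under 0.05 in limma, 4 were higher and 5 lower with 8 libraries, and 6 and 6 with 7. DESeq2 with 7 libraries called 2 higher and 1 lower, against 210 of 14666 genes higher and 0.259% lower. The interferon-induced chemokines Cxcl9 and Cxcl10 had 364, 354, 491 and 274 and 485, 655, 506 and 456 in OA and 537, 461, 742 and 612 and 844, 882, 619 and 699.9 in sham, with overlap in both, and Cxcl16 had 0.36. JAK-STAT genes were lower in 19 of 30 with medians of -0.04 and -0.05 and 0 called. Stat6, which carries IL-4 and IL-13 signals, had 2787, 3156, 2748 and 2818 in OA and 2935, 2789, 2587 and 3148 in sham. Its log2 fold change was 0.01 on 8 libraries (SE 0.08) and took either sign among the alternatives. Jak3 had 358, 403, 353 and 309 in OA and 479, 453, 539 and 478 in sham, without overlap, at -0.46, while Socs2 and Lifr had -0.52 and -0.39.

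Lists of signaling genes had medians from -0.11 to 0.21. TGFβ and BMP genes were higher in 17 of 41 (medians -0.02 and 0.03), with Tgfbr1 at 0.53, Inhba at 0.51 and the co-receptor Tgfbr3 at -0.36. Wnt genes were higher in 17 of 35 (-0.01 and 0.12), with the receptors Fzd2, Fzd3 and Fzd4 at 0.78, 0.45 and -0.45. The medians of both lists took either sign among the alternatives. Growth factor genes were higher in 16 of 38 (medians -0.11 and -0.0046), 2 were called with 7 libraries (against 0.552% of all genes), Pdgfra and Igfbp6, and Egfr and Angpt2 had 0.50 and -0.39. Genes of nerve guidance and pain were higher in 15 of 23 (0.14 and 0.21), and the 3 called with 7 libraries, against 0.552% of all genes, were Sema3b, Sema3c and Ntn4, which encode guidance ligands. From this list, Ptges, which makes prostaglandin E2, had 57.6, 36.8, 48.3 and 46.1 normalized reads in OA and 19.6, 30.1, 35.6 and 26.4 in sham, without overlap. Tac1, Calca, Gdnf and Artn of this list were below a mean of 10.

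Metabolic and cell cycle genes had small differences that mostly pointed one way. Genes of cholesterol synthesis were higher in 23 of 24 with medians of 0.16 and 0.18, and 6 were higher in OA without overlap, against 2.85% of all genes, with 0 called. Msmo1 had 626, 579, 618 and 649 normalized reads in OA and 515, 501, 476 and 479 in sham, without overlap. Its log2 fold change was 0.33, and that of Insig1, which holds back the pathway, was 0.37. Cell cycle genes were lower in 37 of 38, with medians of -0.28 and -0.44 and 0 called. Their mean log2 level was 6.99 to 7.29 in OA and 7.49, 8.34, 6.92 and 6.91 in sham, so sham replicate 2 stood alone. Mki67, a marker of dividing cells, had 562, 737, 520.1 and 567 in OA and 1061, 1953, 445 and 495 in sham, and Pcna, Mcm4 and Gins2 had -0.19, -0.33 and -0.35. Without sham replicate 2 the median of the list was 0.02. Immediate early genes were lower in 23 of 29 (medians -0.14 and -0.07), with Egr1 at -0.34, Myc at -0.50 and Dusp2 at 0.37. Genes of hypoxia and glycolysis were higher in 17 of 24 (0.07 and 0.08), with Hk3 at 0.42, Pfkl at 0.16 and Tpi1, whose low reads may be shared with copies, at 1.29. Iron and heme genes were higher in 8 of 14 (0.04 and -0.03), with Steap3 at 0.47, Steap4 at -0.42 and Hmox1 (heme oxygenase) at 2796, 3149, 2829 and 2561 in OA and 3299, 4019, 3363 and 3682 in sham, without overlap.

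**Figure D4:**
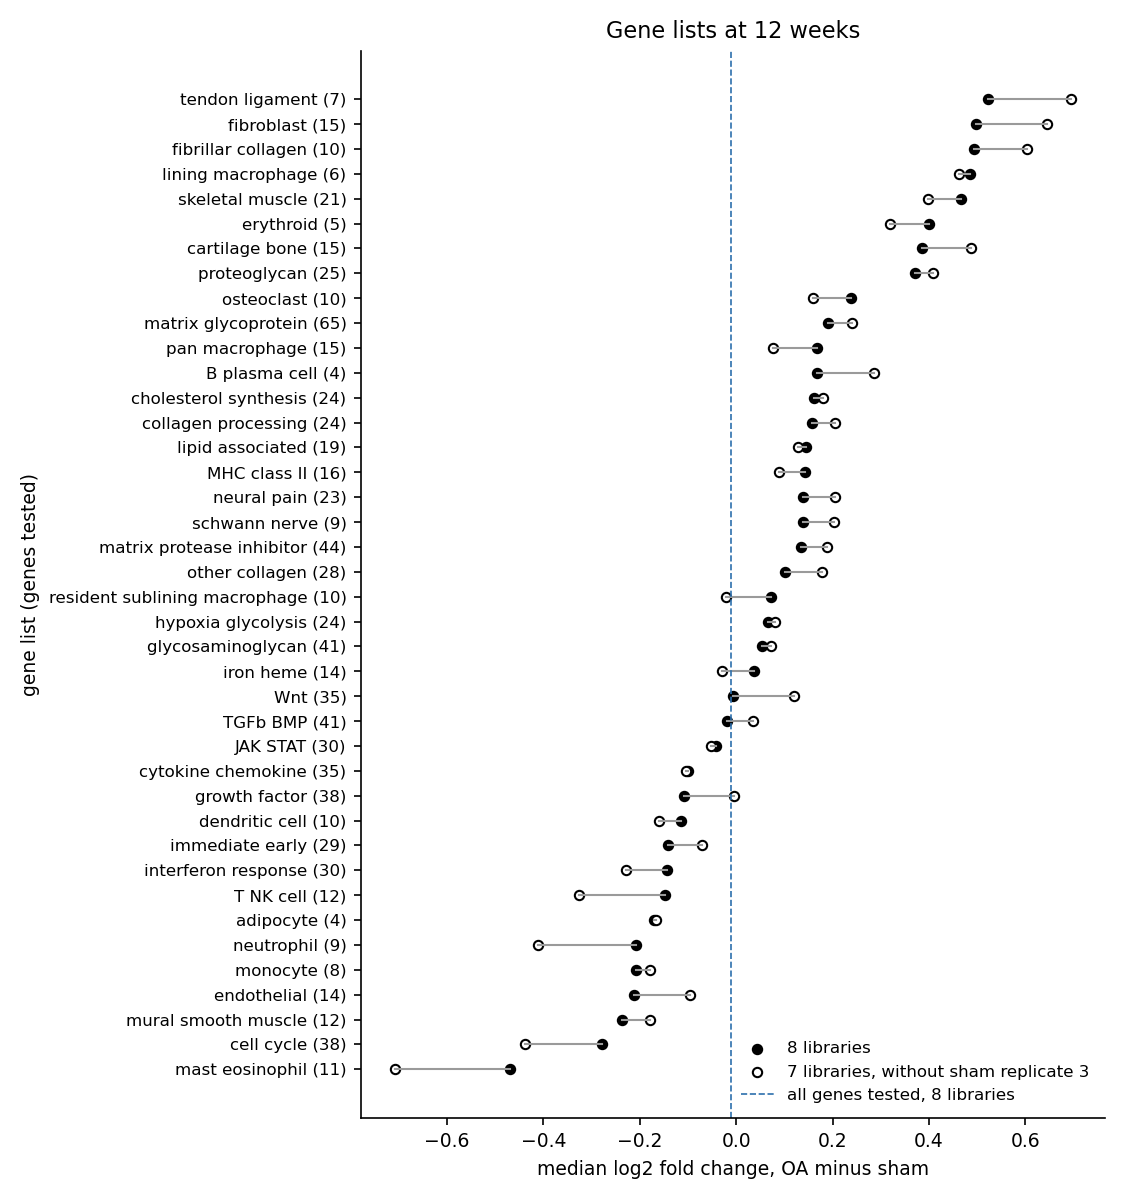
Median log2 fold change of OA minus sham for 40 gene lists at 12-weeks (x axis), with the number of genes tested in brackets, with 8 libraries (filled) and without sham replicate 3 (open). The dashed line is the median of all genes tested. Tendon, fibroblast and fibrillar collagen lists lie highest, at 0.49 to 0.52 with 8 libraries, and move further up without sham replicate 3. Lining macrophage markers lie next to them at 0.49 and move down to 0.46. Mast cell and cell cycle lists lie lowest.

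The libraries from 4-weeks were not used to choose the called genes, which were looked up in them. They are 5 OA and 5 sham libraries, pools of 4 rats each, from the same surgeries. Of the 77 genes called higher at 12-weeks, 69 were higher in OA at 4-weeks, where 57.1% of all genes were, with a median log2 fold change of 0.40, and 33 passed the unadjusted threshold in limma, against 4.1% of genes in that direction at 4-weeks. No gene of the 77 was called at 4-weeks, where limma called 0 of 14861 genes. Tnn had a log2 fold change of 2.30 at 4-weeks, Egfl6 1.13, C1qtnf3 1.18, Cthrc1 1.02, Lum 0.90, Fap 0.85 and Postn 0.72. The 8 genes below 0 at 4-weeks included Igdcc4 at -0.13, Igfbp6 at -0.12, Acp5 at -0.09 and Sema3c at -0.03, with Cd9 at 0.01 and Fam171b at 0.00 near it. Without sham replicate 3 of the 4-week libraries, which had the fewest reads there, 67 were higher, against 51% of all genes, and the median was 0.37. All 4 genes called lower at 12-weeks were lower at 4-weeks, where 57.1% of all genes were higher. Their values ran from -0.71 for Gria2 to -0.06 for Prkar2b. Of the 4, 2 passed the unadjusted threshold in limma, against 568 of 14861 genes in that direction.

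The difference between the time points was tested directly, as OA minus sham at 12-weeks less OA minus sham at 4-weeks. No gene passed, with 0 of 14666 called in limma at a smallest adjusted p-value of 0.959, 448 at an unadjusted p-value under 0.05, and 0 called in DESeq2 at a smallest adjusted p-value of 0.0528. Of the 77 genes 13 had an unadjusted p-value under 0.05 for this difference in limma, against 3.05% of all genes. The 77 were chosen by their difference at 12-weeks, which this contrast uses again. A larger share among them therefore follows from the choice and carries no weight. A difference between 12-weeks and 4-weeks was therefore not shown for any of the called genes, nor was it shown that they are alike.

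**Figure D5:**
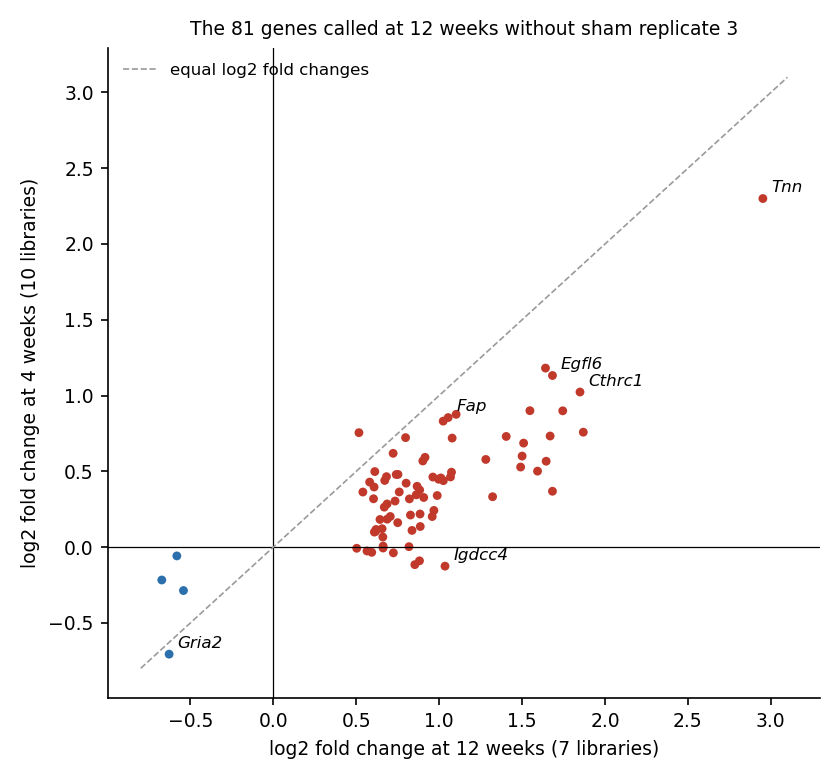
Log2 fold change of OA minus sham at 12-weeks in 7 libraries (x axis) and at 4-weeks in 10 libraries (y axis) for the 81 genes called at 12-weeks without sham replicate 3, higher (red) and lower (blue). The dashed line marks equal values. Of the 77 higher genes 69 lie above 0 at 4-weeks, most of them under the dashed line, with Tnn farthest out at 2.95 and 2.30.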

How the data were processed

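RNA was sequenced from CD11b/c-selected cells of rat synovium, as paired-end libraries of total RNA. The authors trimmed reads with fastp (0.20.0), aligned them with STAR (2.7.6a) to the Rnor_6.0 genome, removed duplicates, counted reads per Ensembl gene with featureCounts (2.0.0) and divided the counts by DESeq2 (1.24.0) size factors within each time point. Whether counting used strand is not given in the sources used here. The deposited signal of each library, its normalized reads, is therefore a count divided by 1 factor, and whole reads were recovered for 100% of values within a tolerance of 0.01. The authors' tables also hold log2 fold changes with standard errors, a test score and p-values of their own comparison, and these columns were not used.

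Groups and replicate numbers were taken from the sample labels, which give 4 libraries a group at 12-weeks and no batch. Genes averaging 10 or more normalized reads over the 8 libraries were tested (the lowest mean kept was 10.0 and 107 genes had no symbol). limma (3.58.1, R 4.3.3) was fitted with a mean-variance trend to log2(normalized reads + 1), with and without sham replicate 3, with Benjamini-Hochberg adjustment of the p-values over all genes tested. The difference between time points was fitted to log2 CPM of recovered reads from all 18 libraries with TMM scaling and a prior count of 2. edgeR (4.0.16), DESeq2 (1.42.0) and sva (3.50.0) were used for alternatives. The fits were tested on simulated counts with a common spread for every gene and no deviating library. That check does not cover a library such as sham replicate 3.

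Named genes were the 20 largest rises and all falls of the fit with 7 libraries, the 8 higher and 8 lower genes of smallest p-value with 8 libraries, the 6 genes farthest above and the 6 farthest below the other sham libraries in sham replicate 3, up to 3 genes per list by smallest p-value, 5 macrophage genes and Stat6. Some genes that meet these rules are not reported here. The remaining genes called with 7 libraries and Vsig4, Col3a1, Dcn, Thy1, Mki67 and Mmp13 were added after their values were seen. The members, the 40 gene lists and the fit without sham replicate 3 were chosen with earlier results of these data known.

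No 2 libraries of a group were alike within counting noise, with a chi-square per degree of freedom of 5.45 to 23.5 over the 12 pairs. Libraries are separate pools of animals, and p-values set the difference between groups against the spread between pools.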

Additional observations from a re-analysis of the deposited data

Results flagged for a closer look

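In each group of 4 libraries a value was looked at more closely where the gap between the outermost library and its neighbour was, as a share of the range of the group, above Dixon's critical value. This held for 33 of 492 groups, where chance gives about 1 in 20. Of the 33, 17 were in sham replicate 3 and 6 in OA replicate 4, and many of these genes were chosen by a fit that leaves out sham replicate 3, so this number carries no weight of its own.

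Sham replicate 3 stood above the other sham libraries in matrix and stromal genes. Its normalized reads were 91.58 for Cthrc1, where the others had at most 27.96, 100.5 for Egfl6, 482.1 for Col22a1, 1987 for Postn, 16550 for Col1a1 and 597.8 for Col6a6. It had 600.3 for Itgbl1, 919.6 for Cd55, 384.1 for Scara5, 213.7 for Sema3b, 1929 for Nbl1 and 291.3 for AABR07049085.1. It was also high for Tnfsf10 (3944), H3f3c (382.8) and Socs2 (856), and in the mean log2 level of endothelial markers, 11.63 against 11.19 to 11.21. For Lgals9 it was low, with 947.6 against at least 1194 in the others.

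OA replicate 4 was high for Acp5 (1420) and low for Clec9a (187.7), Lipe (1341) and Thy1 (429). It was also low in the mean log2 level of adipocyte markers, 9.66, and of Schwann cell and nerve markers, 6.93. In OA replicate 1, Postn had 3007 normalized reads, where the other OA libraries had at most 1956. OA replicate 2 was high for Ngp (593.4) and low for Loxl1 (307.4), and OA replicate 3 was high for Tnfrsf11b (231.6) and for matrix proteases, with a mean log2 level of 8.79. Sham replicate 1 was high for Jchain (52.14) and sham replicate 4 for Lyz2 (47080). Sham replicate 2 was low for Sulf2 (1079) and Egfr (694.4) and high in erythroid markers, with a mean log2 level of 8.64.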

How the results depend on the processing

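With 8 libraries the number of genes called was 18 with 1 surrogate variable and 100 with DESeq2, and it ranged from 0 to 81 when 1 library was left out, with 81 without sham replicate 3 and 1 without sham replicate 4. With 7 libraries it was 0 with 1 surrogate variable, 248 with DESeq2, 128 when every gene with a read was tested and 17 to 82 when a further library was left out. The cause was not tested. Apart from the replicate block, given next, the counts of the other alternatives stayed within 1.5 times those of limma.

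Deviations of OA and sham libraries of the same replicate number had correlations of -0.02, -0.03, 0.30 and 0.07. Between libraries of different numbers they ran from -0.22 to 0.22. Whether the replicate numbers pair the libraries was not tested. With a replicate block the calls numbered 0 with 8 libraries and 30 with 7, of which 24 were among the 81.

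Of 206 named genes, 13 changed sign with 8 libraries under at least 1 alternative, none of them called by limma with 8 or 7 libraries. With 1 surrogate variable Spp1 had a log2 fold change of 0.15 and Cd68 0.070. RGD1561730 had -0.20 with DESeq2, -0.23 with edgeR, -0.011 with a pseudocount of 5 and -0.37 with quality weights, under which Itgam had -0.11 and Stat6 -0.026, and Cd79b had 0.021 with edgeR. When 1 library was left out, the values ranged from -1.09 to 0.061 for Lilrb3, -0.73 to 0.20 for Spp1, -1.42 to 0.028 for Camp, -0.58 to 0.48 for RGD1561730, -0.53 to 1.92 for Adamts13, -0.71 to 0.07 for H3f3c, -0.056 to 0.78 for Unc79, -0.62 to 0.12 for Cd79b, -0.15 to 0.11 for Cfd, -0.14 to 0.10 for Itgam, -0.20 to 0.073 for Cd68, -0.0086 to 0.19 for Adgre1 and -0.04 to 0.054 for Stat6. The median kept its sign under all 18 settings in 32 of the 40 lists. The exceptions were resident sublining macrophage, neutrophil, T and NK cell, Schwann cell, TGFβ and BMP, Wnt, cell cycle, and iron and heme genes.

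With 3 or 4 pools a group, differences smaller than the spread between pools were not detectable, and low genes near 3 reads cannot be ordered.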
